A study of Mus musculus with 16 samples.

Results

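Carriers of amino acids in the cell membrane were followed across 16 arrays of mouse bone marrow progenitors. Members were all probe sets whose single platform gene symbol began with Slc1a, Slc6a, Slc7a, Slc36a, Slc38a or Slc43a, or was Slc3a1 or Slc3a2. This gave 64 probe sets of 63 genes, out of 30638 probe sets of 30176 genes that name 1 gene, and Slc6a9 had 2 of them. Slc7a6os, a gene on the opposite strand next to Slc7a6 that is no carrier, was counted because its symbol met the rule. Some members move other cargo or sit elsewhere in the cell. Slc6a2, Slc6a3 and Slc6a4 carry monoamines, Slc6a6 taurine, Slc6a8 creatine and Slc43a3 nucleobases, and Slc38a9 and Slc36a1 work mainly on lysosomes.

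Cells take up amino acids through carriers that differ in cargo and driving force. Sodium-coupled carriers of the SLC1, SLC6 and SLC38 families concentrate neutral or acidic amino acids, proton-coupled SLC36 carriers move small ones, and SLC43 carriers let branched-chain and aromatic amino acids pass down their gradient. SLC7 light chains exchange one amino acid for another and reach the membrane bound to an SLC3 heavy chain, of which Slc3a2 (CD98) is the widespread one. In blood cell precursors these carriers feed protein synthesis, glutathione and, through glycine, heme.

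The arrays compared Lin-Kit+Sca1+ cells (KSL, stem cells and multipotent progenitors) and Lin-Kit+Sca1- cells (KL, committed progenitors), each sorted from bone marrow of WT mice and of mice lacking the calcium-dependent kinase Camkk2 (Camkk2 null, labelled KO). Each of the 4 groups had 4 arrays, numbered as replicates 1 to 4, and 16 mice per genotype stood behind them. How the mice were divided over the replicates, and their age and strain, are not given in the sources used here for these arrays. The Camkk2 probe set differed by -0.13 in KSL (adjusted p = 0.714, limma) and by -0.05 in KL (adjusted p = 0.923). The arrays overlapped between the labels, and the intervals were wide (95% CI -0.68 to 0.41 in KSL and -0.60 to 0.50 in KL). They do not exclude a fall by a fold of 1.5, so whether this signal follows the genotype label was not settled. Which part of the gene is deleted is not stated for these mice, so this probe set may check nothing, and every direction below rests on the labels.

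Markers of several cell types differed between the labels. Over all probe sets, 1.3% were called higher and 3.67% lower in KSL labelled null, and 1.26% and 2.7% in KL. Of 24 measured erythroid genes, 19 were called higher and 1 lower in KSL labelled null (16 and 0 in KL), and their summed linear signal was 6114 to 6429 on the KSL WT arrays, 20569 to 24335 on the KSL null arrays, 4797 to 6286 in KL WT and 16580 to 22986 in KL null. Heme synthesis genes were called higher for 12 of 15 in KSL and 10 in KL, and granulocyte-macrophage and neutrophil genes for 9 of 21 in both, with 2 lower. Stem cell genes were called lower for 8 of 21 in KSL and 9 in KL, and lymphoid priming genes for 10 of 13 in both. Of the other lists, megakaryocyte (9 genes) and B cell genes (8) had no call, and mast cell genes (9) had 1 higher and 1 lower in KSL and 3 higher in KL. T and NK cell genes (12) had 2 lower in KSL and 1 each way in KL, macrophage genes (12) 1 higher and 2 lower in KSL and 1 each way in KL, and plasmacytoid dendritic cell genes (8) 2 lower in KSL alone. Between KSL and KL under the WT label, none of the 21 stem cell genes was called, with a median difference of -0.15, KSL minus KL. Under the null label 4 of them were called lower in KSL (Angpt1, Cd34, Adgrg1 and Meis1) and none higher. The stem cell list was thus not higher in the cells labelled KSL. The gene for Sca-1 (Ly6a) is on that list but had no probe set among those analysed, so it could not check the sort. The part of these cell types in the changes of the carriers was not tested, and in RNA of sorted cells fewer cells of a type cannot be told apart from less RNA per cell.

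A small number of carriers were called between the labels and most were not. In KSL, 3 of the 64 probe sets were called higher under the null label and 3 lower, by an adjusted p under 0.05 from limma over all 30638 probe sets and a fold of at least 1.5. The background was 1.3% called higher and 3.67% called lower of all probe sets. In KL, 3 were higher and 3 lower, against 1.26% and 2.7% of all. Each count of 3 is 4.69% of the members, above the background percentage in both directions and both cell types. Whether so few calls differ from the background was not tested. The members were also chosen with earlier results of these data known. Without the fold minimum 17 members (26.6%) passed in KSL, 9 higher and 8 lower, and 12 (18.8%) in KL, 8 higher and 4 lower. The shares of all probe sets were 19% and 15.6%. At an unadjusted p under 0.05, 25 of 64 members passed in KSL and 20 of 64 in KL, against 35.2% and 27.8% of all. WT and null arrays did not overlap for 25 of 64 members in KSL and 14 of 64 in KL, against 26.7% and 20.8% of all. The median change over members was 0.08 on the log2 scale in KSL and 0.05 in KL, beside 0.05 and 0.03 over all probe sets.

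Across both cell types 8 carriers were called, and 4 of them in both with the same direction, namely Slc38a5, Slc6a20a, Slc7a8 and Slc6a15. The shares of all probe sets called in either or in both are not given here. These counts are therefore not read as particular to the carriers. Slc7a7 and Slc36a4 were called in KSL alone, and Slc7a5 and Slc7a6 in KL alone. The difference between the KSL and the KL effect was called for 0 of 64 members and for 0% of all probe sets (limma interaction term), while 4 members and 6.16% of all reached an unadjusted p under 0.05. The calls made in 1 cell type are therefore not shown to differ from the other cell type.

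KSL and KL differed little in these carriers. Under the WT label no member was called (limma, adjusted p and fold as above), against 0.00979% of all probe sets called higher in KSL and 0.0751% lower, and 0.118% by adjusted p alone. An unadjusted p under 0.05 was reached by 5 of 64 members, against 8.09% of all, and 5 of 64 did not overlap, against 3.34%. Under the null label 1 member was called higher, Slc6a20a, described below, and none lower, against 0.0359% and 0.222% of all, and 1.06% of all by adjusted p alone. There 10 of 64 members reached an unadjusted p under 0.05, against 12.5% of all, and 9 of 64 did not overlap, against 8.87%.

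**Figure D1:**
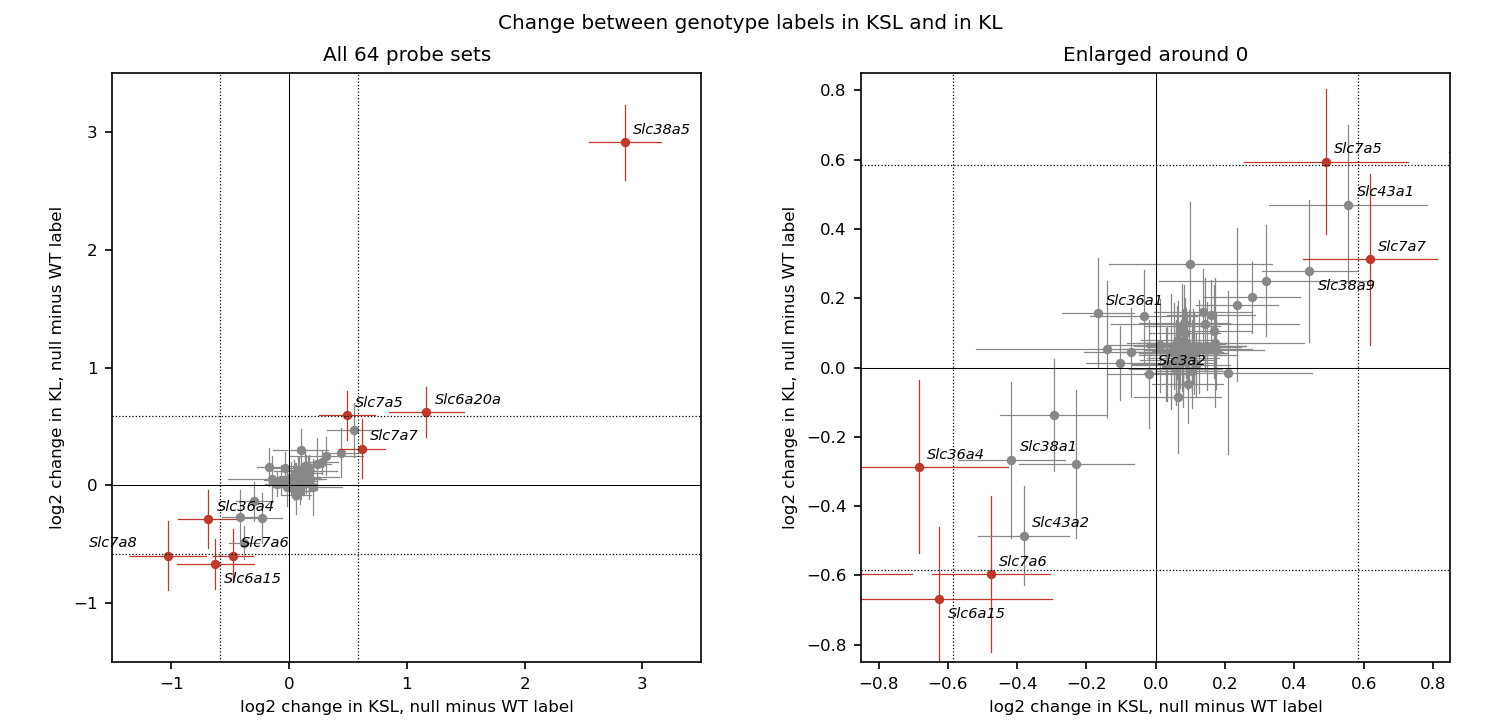
Change of each of the 64 probe sets on the log2 scale, null minus WT label, in KSL (horizontal) and KL (vertical), with lines for the 95% confidence intervals, dotted lines at a fold of 1.5 and members called in either cell type in red. The right panel enlarges the centre; Slc38a5 stands alone at 2.85 and 2.91, and the other members lie between -1.03 and 1.17 in KSL.

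The promoters of 5 carriers are shown because these genes are described below as called in KSL and have a window in the RefSeq promoter table (GRCm38.p6). Each window spans 300 bases around an annotated start, written 5′ to 3′ on the strand of the gene. The windows lie at chrX:8271131-8271430 (plus strand) for Slc38a5, chr9:123678783-123679082 (minus) for Slc6a20a, chr14:54781837-54782136 (minus) for Slc7a8, chr9:15709488-15709787 (plus) for Slc36a4 and chr14:54417895-54418194 (minus) for Slc7a7, the first of 5 windows of that gene. Capitals mark the letters GATAA (GATA factors), CACCC (KLF factors), TGATGNA (the ATF4 element) and CACGTG (the E-box), searched on both strands, so that CACCC on the other strand reads GGGTG.
Slc38a5: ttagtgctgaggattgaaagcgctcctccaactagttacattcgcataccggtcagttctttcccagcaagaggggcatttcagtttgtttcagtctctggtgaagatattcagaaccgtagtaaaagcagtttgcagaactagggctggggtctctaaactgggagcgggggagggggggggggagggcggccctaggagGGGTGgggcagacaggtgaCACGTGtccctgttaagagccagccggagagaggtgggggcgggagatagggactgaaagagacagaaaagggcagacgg
Slc6a20a: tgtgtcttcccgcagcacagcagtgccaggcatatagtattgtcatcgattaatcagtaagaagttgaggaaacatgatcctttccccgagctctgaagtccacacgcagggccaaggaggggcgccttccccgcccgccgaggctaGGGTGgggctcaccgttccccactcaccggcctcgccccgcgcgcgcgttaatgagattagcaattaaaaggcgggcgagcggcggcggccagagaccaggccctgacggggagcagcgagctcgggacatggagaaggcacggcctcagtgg
Slc7a8: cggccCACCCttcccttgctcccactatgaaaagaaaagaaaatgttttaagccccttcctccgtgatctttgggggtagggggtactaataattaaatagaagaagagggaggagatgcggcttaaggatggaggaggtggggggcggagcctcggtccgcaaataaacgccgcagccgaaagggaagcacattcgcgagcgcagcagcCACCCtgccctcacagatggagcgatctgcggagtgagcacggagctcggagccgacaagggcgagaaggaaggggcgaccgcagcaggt
Slc36a4: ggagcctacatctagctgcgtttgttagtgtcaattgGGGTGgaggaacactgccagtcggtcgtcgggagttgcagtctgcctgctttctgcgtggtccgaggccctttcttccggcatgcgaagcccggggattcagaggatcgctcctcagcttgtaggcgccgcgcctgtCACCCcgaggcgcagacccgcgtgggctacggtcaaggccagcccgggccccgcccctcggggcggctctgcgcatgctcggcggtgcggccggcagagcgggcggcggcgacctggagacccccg
Slc7a7: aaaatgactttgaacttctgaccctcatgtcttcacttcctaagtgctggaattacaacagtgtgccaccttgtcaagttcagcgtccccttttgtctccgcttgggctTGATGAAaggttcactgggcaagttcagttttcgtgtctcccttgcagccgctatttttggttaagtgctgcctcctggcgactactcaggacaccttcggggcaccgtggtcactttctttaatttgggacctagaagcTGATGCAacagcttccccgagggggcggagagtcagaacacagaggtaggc
The Slc38a5 window held 1 CACCC and 1 CACGTG, that of Slc6a20a 1 CACCC, those of Slc7a8 and Slc36a4 2 CACCC each and that of Slc7a7 2 TGATGNA. None of the 5 windows printed held the letters GATAA. Of the other 4 windows of Slc7a7, 3 held GATAA. Those at chr14:54417653-54417952 and chr14:54417630-54417929 overlap and hold the same GATAA site. The KLF letters stood in 2 of the other 4 windows. The ATF4 letters stood in 1, at a site already marked in the overlapping printed window. Of all 32544 promoter windows, 25.3% held GATAA, 57.7% CACCC, 12.05% TGATGNA and 7.17% CACGTG. The 67 windows counted for 46 member genes held them in 17, 43, 9 and 9 cases, or 25.4%, 64.2%, 13.4% and 13.4%. This count left out the chromosome of the member Slc6a7, which the windows of all genes include. Whether the percentages differ was not tested.

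Slc38a5, a system N carrier that exchanges glutamine, asparagine, histidine and serine with sodium and protons, had the largest change of the members in both cell types. Its log2 signal was 6.54, 6.95, 6.35 and 6.26 on the KSL WT arrays and 9.22, 9.53, 9.33 and 9.41 on the KSL null arrays. In KL it was 6.09, 5.91, 6.22 and 6.04 under WT and 8.59, 8.97, 8.97 and 9.37 under null. Every null array lay above every WT array, with a gap wider than the spread within any group. The change was 2.85 in KSL (SE 0.14, 7.21-fold, adjusted p = 1.47e-06 from limma) and 2.91 in KL (SE 0.14, 7.52-fold, adjusted p = 3.10e-06). Slc38a5 stayed called in KSL and KL without any single array, with changes from 2.76 to 2.99 in KSL and from 2.78 to 3.04 in KL. Its neighbour on the X chromosome, Ftsj1, a tRNA methyltransferase gene, changed by 0.39 and 0.36, short of the fold minimum.

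The other SLC38 carriers stood apart from Slc38a5, and none of the other 10 was called. Slc38a1 and Slc38a2, the system A carriers that concentrate glutamine and alanine, lie next to each other on chromosome 15. Slc38a1 read 8.73 to 8.99 on the KSL WT arrays and 8.31 to 8.48 on the null arrays, without overlap. Its change was -0.42 (adjusted p = 2.35e-03) in KSL and -0.27 (adjusted p = 0.114) in KL, where the arrays overlapped. Slc38a2 differed by -0.23 (adjusted p = 0.0594) and -0.28 (adjusted p = 0.0819). Slc38a9, the lysosomal arginine sensor that signals to mTORC1, went the other way. It read 6.71 to 6.82 in KSL WT and 7.06 to 7.31 in KSL null, a difference of 0.44 (adjusted p = 7.59e-04), beside 0.28 in KL (adjusted p = 0.0717). The remaining 7 SLC38 genes differed by -0.10 to 0.15 in KSL and passed no test.

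**Figure D2:**
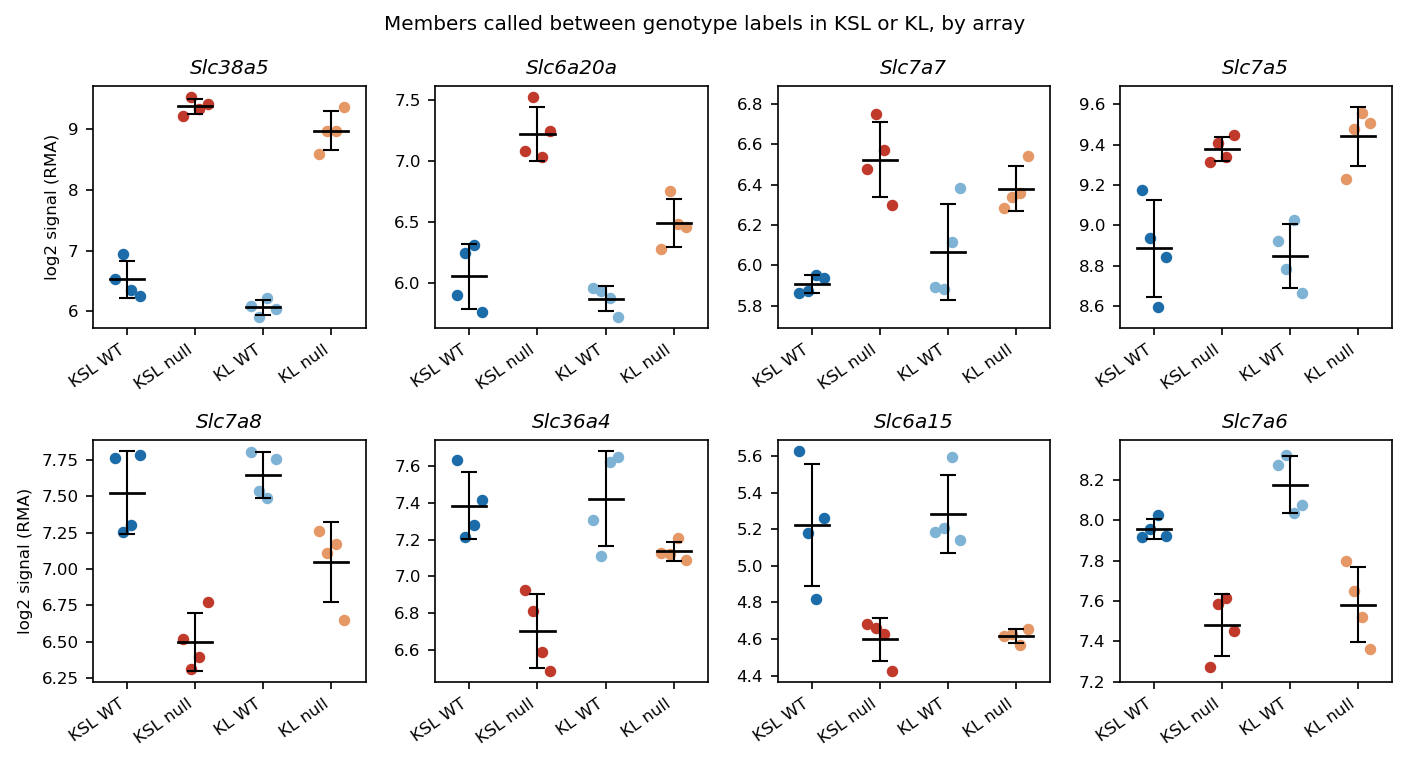
Log2 signal on each array for the 8 carriers called in KSL or KL, with 1 point per array, the group mean as a line and the SD as bars (n = 4 arrays per group). The vertical scales differ between panels; Slc38a5 spans 5.91 to 9.53, and the null arrays of Slc6a15 sit between 4.43 and 4.68 in both cell types.

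Light chains of the SLC7 family differed in opposite directions, while the signal of their heavy chain overlapped between the labels. Slc3a2 read 8.57, 8.54, 8.60 and 8.51 in KSL WT, 8.53, 8.44, 8.54 and 8.64 in KSL null, 8.71, 8.69, 8.95 and 8.79 in KL WT and 8.70, 8.77, 8.89 and 8.70 in KL null. The labels overlapped within each cell type, and the difference was -0.02 in both (95% CI -0.14 to 0.10 in KSL and -0.17 to 0.14 in KL), turning to 0.06 in KSL after quantile normalization. The intervals hold no change as large as the fold minimum. Slc3a2 was lower in KSL than in KL by 0.23 under both labels, which did not pass (adjusted p = 0.230 under WT and 0.106 under null). Slc3a1, the heavy chain of kidney and gut, was dim, with a mean signal below the lowest array median.

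Slc7a5 (LAT1), the light chain that imports leucine and other large neutral amino acids, was higher under the null label. It read 9.18, 8.94, 8.59 and 8.84 in KSL WT and 9.31, 9.41, 9.34 and 9.45 in KSL null. In KL it read 8.92, 8.78, 9.03 and 8.66 under WT and 9.23, 9.48, 9.56 and 9.51 under null. All null arrays exceeded all WT arrays in each cell type. The change was 0.59 in KL (SE 0.09, 1.51-fold, adjusted p = 2.01e-03), which passed both thresholds, and 0.49 in KSL (SE 0.11, adjusted p = 0.0101), which missed the fold minimum. The KL call stood so near that minimum that leaving out WT replicate 2 or 4 or null replicate 2, 3 or 4 ended it, at 0.57, 0.53, 0.58, 0.56 and 0.57, and leaving out KSL WT replicate 1 gave a call in KSL at 0.59.

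Slc7a7 (y+LAT1) exports arginine and lysine in exchange for neutral amino acids, and its loss causes lysinuric protein intolerance in people. Its signal was 5.86, 5.87, 5.95 and 5.94 in KSL WT and 6.48, 6.75, 6.57 and 6.30 in KSL null. The groups did not overlap, and the 4 WT arrays lay close together. The gene rose by 0.62 in KSL (SE 0.09, adjusted p = 8.28e-04), or by 0.54, below the fold minimum, without null replicate 2. In KL it read 5.88 to 6.38 under WT and 6.28 to 6.54 under null, with overlap, and the difference of 0.31 did not pass (adjusted p = 0.0920). Slc7a6 (y+LAT2), the close relative with the same exchange, differed in the other direction. It read 7.92, 7.96, 8.03 and 7.92 in KSL WT and 7.27, 7.58, 7.62 and 7.45 in KSL null, and 8.27, 8.32, 8.04 and 8.08 in KL WT and 7.80, 7.65, 7.52 and 7.36 in KL null. Null arrays lay below WT arrays throughout. The change of -0.60 in KL was called (SE 0.10, adjusted p = 2.92e-03), and that of -0.48 in KSL passed only the adjusted p (1.96e-03). The KL call ended without WT replicate 1 or 2 or null replicate 3 or 4, at -0.56, -0.55, -0.58 and -0.52, and after quantile normalization, at -0.58. Slc7a6os, which lies beside Slc7a6 on the other strand, differed by 0.10 in KSL and 0.30 in KL (adjusted p = 0.0317).

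Slc7a8 (LAT2), an exchanger of small and large neutral amino acids, was the carrier with the largest decrease in KSL. It read 7.76, 7.25, 7.30 and 7.78 in KSL WT and 6.51, 6.31, 6.40 and 6.77 in KSL null. In KL it read 7.80, 7.54, 7.49 and 7.76 under WT and 7.26, 7.11, 7.17 and 6.65 under null. Neither cell type had an overlap, though the nearest WT and null arrays were closer in KL. The gene fell by 1.03 in KSL (SE 0.14, 2.04-fold, adjusted p = 8.52e-04) and by 0.60 in KL (SE 0.13, adjusted p = 0.0119). In KL it lost its call without WT replicate 1 or 4 or null replicate 4, at -0.54, -0.56 and -0.46, and after quantile normalization, at -0.57. Slc7a11 (xCT), the cystine importer that supplies glutathione synthesis, read 4.05 to 4.21 on all 16 arrays, below every array median, and differed by 0.06 in KSL, or -0.01 after quantile normalization. The other light chains, Slc7a9, Slc7a10, Slc7a12, Slc7a13 and Slc7a15, differed by -0.04 to 0.16 in KSL, none called.

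**Figure D3:**
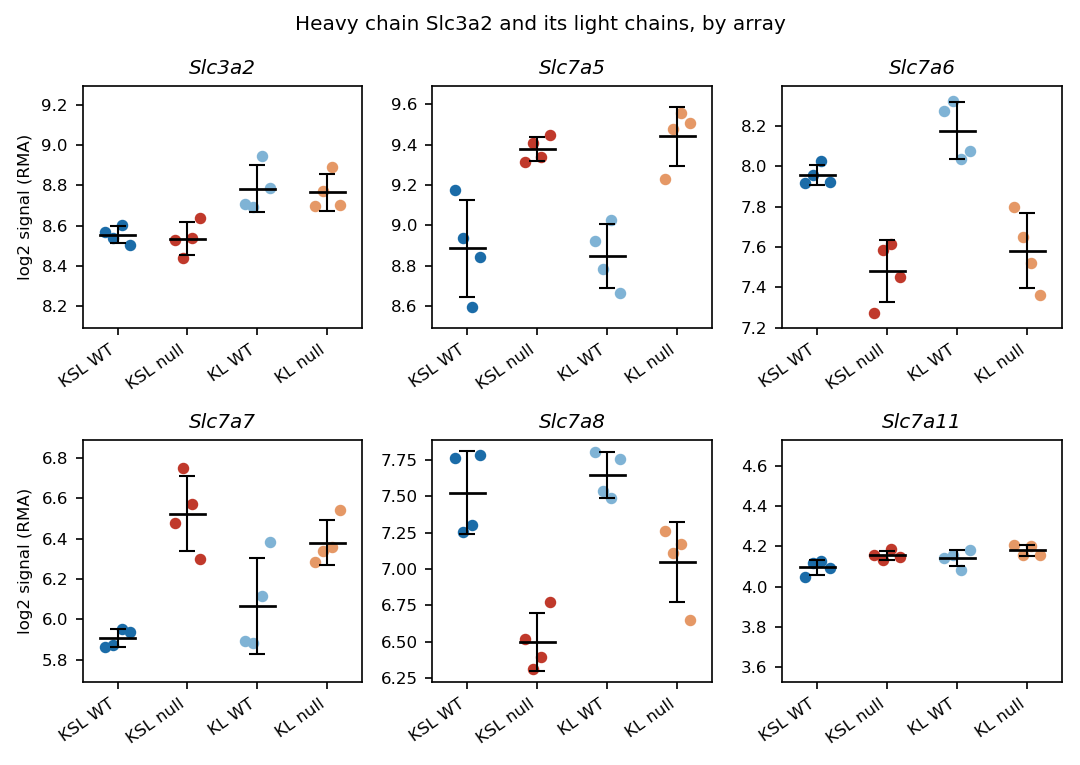
Log2 signal on each array of the heavy chain Slc3a2 and of 5 light chains that pair with it, with group means and SD (n = 4 arrays per group). Slc3a2 lies between 8.44 and 8.95 under all labels, and Slc7a11 stays near 4.1. On null arrays of both cell types Slc7a5 is higher and Slc7a6 and Slc7a8 are lower. Slc7a7 is higher on the null arrays in KSL, while its labels overlap in KL.

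Among the SLC6 carriers, 2 of 8 in the neutral amino acid group were called and none elsewhere. Slc6a20a, a sodium-coupled carrier of proline and related imino acids, read 5.90, 6.25, 6.30 and 5.76 in KSL WT and 7.07, 7.52, 7.03 and 7.24 in KSL null. In KL it read 5.96, 5.93, 5.87 and 5.72 under WT and 6.27, 6.75, 6.48 and 6.46 under null. The null arrays were higher in both cell types, and among null arrays every KSL array exceeded every KL array. It rose by 1.17 in KSL (SE 0.14, 2.24-fold, adjusted p = 3.78e-04) and by 0.62 in KL (SE 0.10, adjusted p = 1.81e-03), the latter falling under the fold minimum without WT replicate 4 (0.57) or null replicate 2 (0.54). It was also the only member called between KSL and KL. Under the null label it was higher in KSL by 0.72 (adjusted p = 0.0130), against 0.0359% of all probe sets called higher, and this ended without KL null replicate 1 (adjusted p = 0.0566). In the same comparison 3 of 24 erythroid genes were called higher in KSL (Cldn13, Trim10 and Klf1, by 0.79, 0.72 and 0.60), 9 by adjusted p alone, and 4 of 21 stem cell genes and the mast cell gene Cpa3 (-1.29) lower, and their part in this difference was not tested. Under WT the difference was 0.18 (adjusted p = 0.839), and the difference of the 2 genotype effects, 0.54, did not pass (adjusted p = 0.649). Slc6a20b, its neighbour on chromosome 9, differed by 0.28 in KSL and 0.20 in KL (adjusted p = 0.0117 and 0.0138). These are related genes next to each other, and whether the array separates their signals fully was not tested.

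Slc6a15, a carrier of branched-chain amino acids and proline best known in brain, was lower under the null label from a low level. It read 5.63, 5.18, 4.82 and 5.26 in KSL WT and 4.68, 4.66, 4.63 and 4.43 in KSL null, and 5.18, 5.21, 5.60 and 5.14 in KL WT and 4.62, 4.63, 4.56 and 4.65 in KL null. The WT arrays were spread and the null arrays lay together, without overlap. It fell by 0.62 in KSL (SE 0.15, adjusted p = 0.0147) and by 0.67 in KL (SE 0.09, adjusted p = 1.03e-03). The call ended in KSL without WT replicate 1 (-0.49) or null replicate 4 (-0.57) and in KL without WT replicate 3 (-0.56). Of the 17 members whose mean signal was below the lowest array median, Slc6a15 was the only one called.

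Several SLC6 carriers with known tasks in blood cells showed no call. Slc6a9 (GlyT1), which brings glycine into red cell precursors for heme, differed by 0.08 and 0.21 at its probe sets in KSL (adjusted p = 0.245 and 0.197) and by 0.03 and -0.01 in KL. The brighter probe set read 6.602 to 6.83 on all 16 arrays. Slc6a6, the taurine carrier, differed by -0.29 in KSL (adjusted p = 0.0154) and -0.14 in KL. The creatine carrier Slc6a8 differed by 0.12 in KSL and the serotonin carrier Slc6a4 by 0.09, neither past the test.

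SLC43 carriers of branched-chain amino acids split by gene. Slc43a1 (LAT3) read 8.71, 8.42, 8.71 and 8.42 in KSL WT and 8.88, 9.25, 9.13 and 9.22 in KSL null, and 8.38, 8.86, 8.49 and 8.44 in KL WT and 8.88, 9.10, 8.99 and 9.09 in KL null. Slc43a2 (LAT4) read 6.95, 7.03, 7.09 and 6.94 in KSL WT and 6.68, 6.66, 6.64 and 6.51 in KSL null, and 7.07, 7.24, 7.07 and 6.99 in KL WT and 6.69, 6.57, 6.53 and 6.64 in KL null. For both genes no array overlapped between labels, with null arrays higher for Slc43a1 and lower for Slc43a2. Slc43a1 differed by 0.56 in KSL and 0.47 in KL (adjusted p = 4.33e-03 and 0.0117), and Slc43a2 by -0.38 and -0.49 (adjusted p = 1.46e-03 and 7.13e-04). All 4 differences missed the fold minimum, which Slc43a1 passed in KSL after quantile normalization (0.64) and without WT replicate 1 (0.60), WT replicate 3 (0.60) or null replicate 1 (0.64). Slc43a3, the nucleobase carrier located near Slc43a1 on chromosome 2, differed by 0.32 in KSL (adjusted p = 0.134) and 0.25 in KL (adjusted p = 0.0402).

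In the proton-coupled SLC36 family, Slc36a4, a high-affinity carrier of proline and tryptophan, was called lower in KSL. It read 7.63, 7.21, 7.28 and 7.42 under WT and 6.93, 6.81, 6.59 and 6.49 under null, without overlap. The change was -0.68 (SE 0.12, adjusted p = 2.60e-03). In KL it read 7.31, 7.11, 7.62 and 7.65 under WT and 7.13, 7.12, 7.21 and 7.09 under null, with overlap, and differed by -0.29 (adjusted p = 0.124). Slc36a1, the lysosomal member, differed by -0.17 in KSL (adjusted p = 0.0326) and by 0.16 in KL (adjusted p = 0.188). These point estimates have opposite signs, and their difference of -0.32 did not pass (adjusted p = 0.443).

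Glutamate, neutral exchanger and cationic carriers gave no call. Slc1a5 (ASCT2), the main glutamine exchanger of many dividing cells, read 8.12 to 8.86 in KSL WT and 8.05 to 8.67 in KSL null, and the difference of -0.14 had a wide interval (95% CI -0.52 to 0.24). In KL it was 0.05 (95% CI -0.14 to 0.25). Slc1a4 (ASCT1), its relative for serine and alanine, differed by 0.23 in KSL (adjusted p = 0.0126) and 0.18 in KL. Slc7a1 (CAT1), the arginine importer, differed by 0.17 and 0.07. The 5 glutamate carriers differed by 0.06 to 0.12 in KSL.

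**Figure D4:**
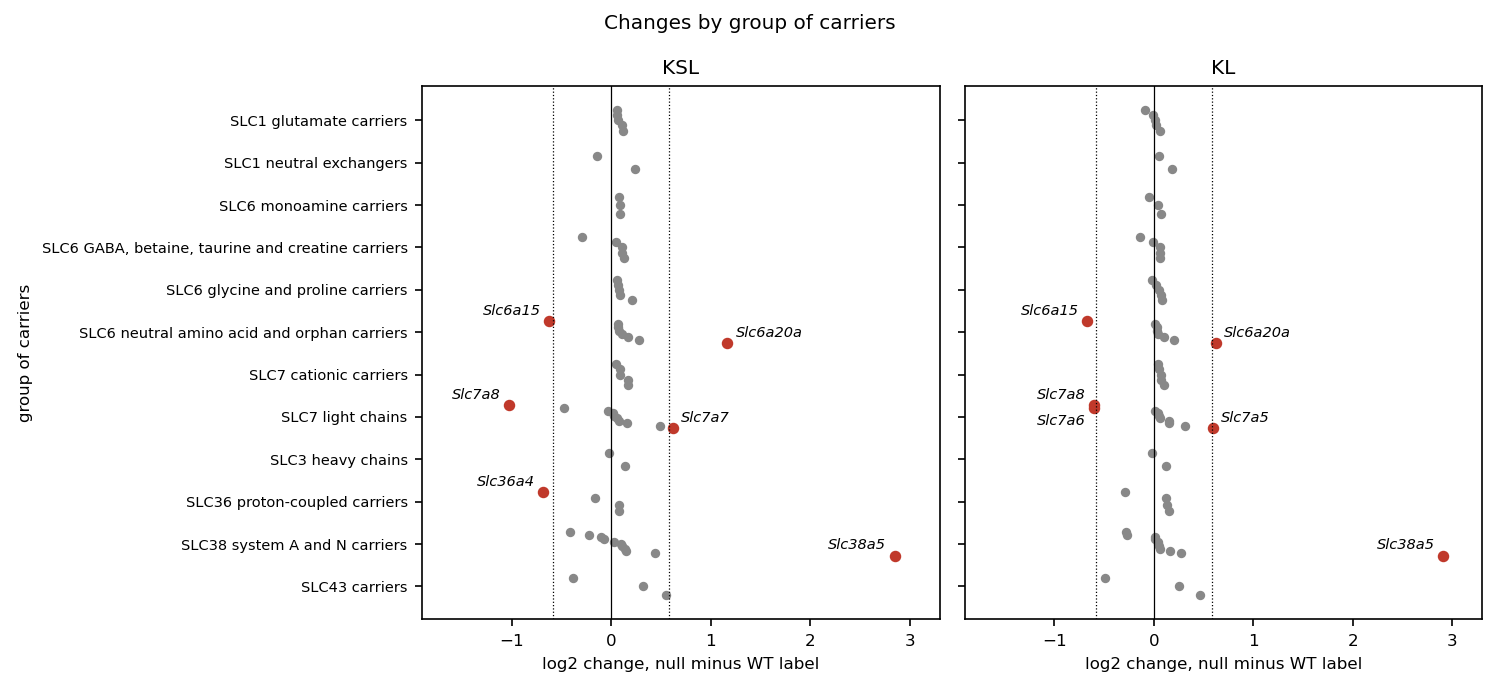
Log2 change of each member, null minus WT label, in KSL and KL by group of carriers, with called members in red and named and dotted lines at a fold of 1.5. Called members fall in 4 of the 12 groups, and the SLC7 light chains hold changes from -1.03 to 0.62 in KSL.

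Genes beside the called carriers were counted as well. Of 38 measured protein-coding genes within 3 places of a called carrier, 2 were higher and 2 lower in KSL, beside 1.3% and 3.67% of all probe sets, and 2 and 2 in KL, beside 1.26% and 2.7%. Cebpe, a granulocyte transcription factor gene next to Slc7a8 on chromosome 14, was higher by 1.19 in KSL and 1.38 in KL, opposite to Slc7a8. Mmp14, a membrane protease gene near Slc7a7, was higher by 1.00 and 0.86. Pla2g15, a lysosomal phospholipase gene next to Slc7a6, differed by -0.80 and -0.61, and Abhd4, near Slc7a7, by -0.88 and -0.89. These 4 genes were named after their values were seen.

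Genes that use or sense amino acids were counted in 7 lists. The background for each list was 1.3% of all probe sets called higher and 3.67% lower in KSL. In KL it was 1.26% and 2.7%. By adjusted p alone, 2595 of all 30638 were higher and 3213 lower in KSL, and 2152 and 2642 in KL. Whether any list differs from this background was not tested. Asns, which makes asparagine from glutamine and is a target of the stress factor ATF4, was the gene with the largest rise in these lists. It read 7.67, 7.68, 7.60 and 7.42 in KSL WT and 9.25, 9.48, 9.59 and 9.52 in KSL null, and 7.44, 7.54, 7.69 and 7.50 in KL WT and 8.96, 9.37, 9.57 and 9.54 in KL null. The labels were far apart in both cell types, and Asns rose by 1.87 and 1.82 (adjusted p = 1.46e-06 and 2.01e-05, limma). It was the only 1 of 27 genes of the integrated stress response list called higher in either cell type, and Vldlr, a lipoprotein receptor, was the only one called lower, at -0.59 and -0.62. The Vldlr call ended in KSL without WT replicate 1 or 2 or null replicate 2 (-0.53, -0.57 and -0.56) and in KL without WT replicate 1 (-0.55). The list's median change was -0.0053 in KSL, turning to 0.0049 after quantile normalization, and 0.01 in KL.

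Cytosolic aminoacyl-tRNA synthetases, which load amino acids onto tRNA, differed mostly in 1 direction. The 19 measured genes of this list include Aimp1 and Aimp2, which are partners of the synthetases and not synthetases themselves. Lars, for leucine, was counted in the mTORC1 list instead. Of the 19, 2 were called higher in KSL and 3 in KL and none lower. By adjusted p alone 10 were higher in KSL and 14 in KL, again with none lower. The medians were 0.28 and 0.32, and the KSL count was 7 with centred array medians and 14 after quantile normalization (median 0.36). Hars, for histidine, rose by 1.05 and 0.93, and Gars, for glycine, by 0.62 and 0.73. Eprs, for glutamate and proline, rose by 0.65 in KL. The KSL call of Gars ended without WT replicate 2 or null replicate 4, at 0.58 and 0.57, and the KL call of Eprs without WT replicate 2 (0.55).

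Of 39 genes of amino acid sensing by mTORC1, none was called higher and 2 were lower in both cell types. By adjusted p alone 4 were higher and 5 lower in KSL, and 5 each way in KL. Sesn3 and Sesn1, sestrins that restrain mTORC1 through the GATOR complexes, fell by 2.57 and 1.51 in KSL and by 1.87 and 1.35 in KL. Sesn3 arrays were spread, from 6.67 to 8.09 in KSL WT and from 3.86 to 5.41 in KSL null, without overlap. Of 12 genes for ubiquitin ligases and trafficking of carriers, 2 were called lower in both cell types and none higher. They were the arrestin-related Txnip, which fell by 1.79 and 1.31, and Arrdc3, which fell by 0.76 and 0.69. By adjusted p alone 1 was higher and 6 lower in KSL, and 0 higher and 5 lower in KL. The list medians were -0.30 and -0.16.

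Other carriers and enzymes gave few calls. Of 26 carriers outside these families, 2 were higher and 1 lower in KSL and 1 each way in KL. Slc25a38, the mitochondrial glycine carrier for heme that is also in the heme list, rose by 0.89 and 0.74, Slc16a10, an aromatic amino acid carrier, by 0.63 in KSL, while Sfxn3, a mitochondrial serine carrier, fell by 0.62 and 0.69. Slc16a10 fell below the fold minimum without KSL WT replicate 2 (0.54) or null replicate 2 (0.55), and Sfxn3 did so without WT replicate 1 in KSL (-0.48) and in KL (-0.58). Of 17 enzymes of glutamine, arginine and branched-chain amino acids, Oat (0.78 and 0.96) and Odc1 (0.67 and 0.65), which route ornithine to proline and glutamate or to polyamines, were the 2 called in each cell type, both higher. Of 10 glutathione genes, 2 were higher and 1 lower in KSL and 1 each way in KL. They were Gsr, glutathione reductase (0.91 and 0.85), Gclc, which makes the first bond of glutathione (0.64 in KSL), and Ggt5, a gamma-glutamyl transferase (-0.65 and -0.78).

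**Figure D5:**
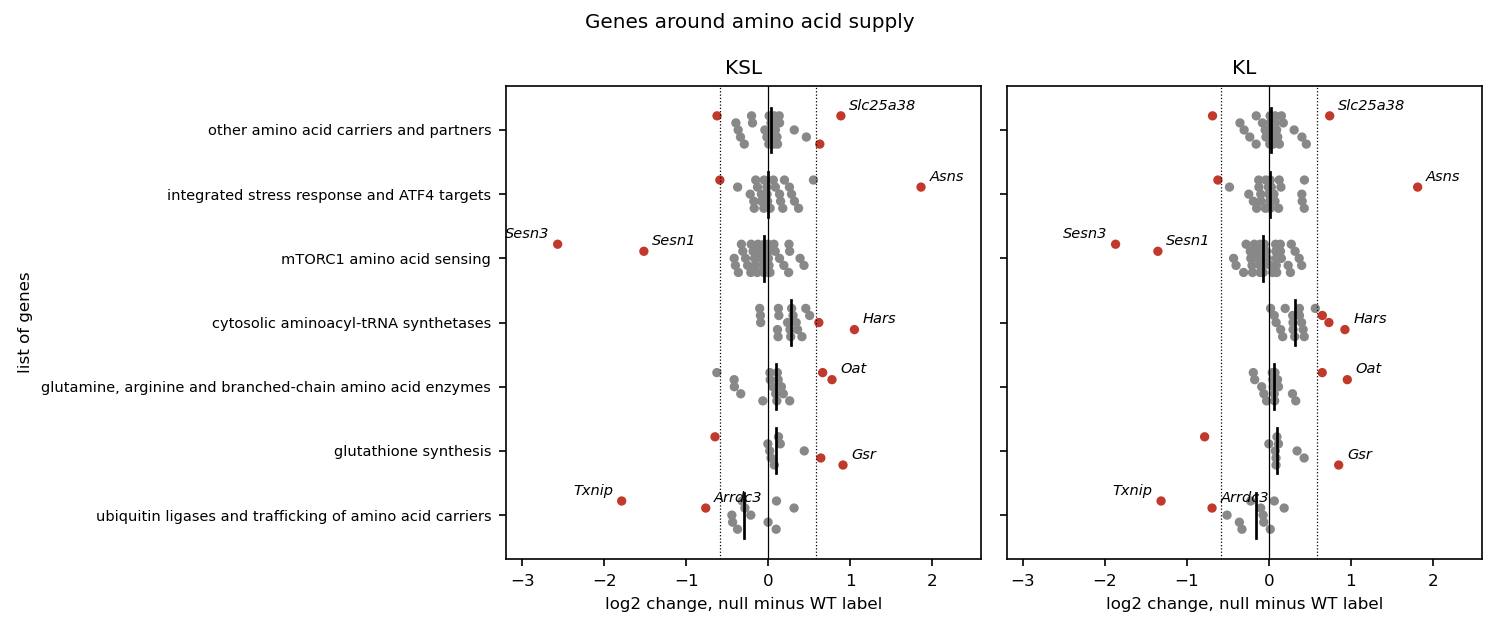
Log2 change of each measured gene of the 7 lists, null minus WT label, in KSL and KL, with called genes in red, list medians as black bars and dotted lines at a fold of 1.5. Asns lies at 1.87 and 1.82, Sesn3 at -2.57 and -1.87, and most tRNA synthetases lie right of 0.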

How the data were processed

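RNA from sorted KSL and KL cells was measured on 16 whole-transcript arrays, 1 per sample. The deposited values are log2 signals that the authors made with RMA in Partek 6.6, per the submitters' processing notes, with array medians from 5.01 to 5.12. The array number limits precision. Of 72688 features, 30638 name 1 gene in the platform annotation. The 2176 that name several and the 39874 that it does not list were left out, and 0 value columns belonged to no sample. Groups came from the labels. Since nothing states that the replicates were separate animals or pools, p-values measure the spread between these arrays, which may be technical. Two-sided tests came from limma 3.58.1 (R 4.3.3), with lmFit followed by eBayes, fitted over all 30638 probe sets, on the 8 arrays of a cell type for the genotype labels and on all 16 for KSL against KL and for the interaction. A call required both a fold of 1.5 or more and p below 0.05 after Benjamini-Hochberg adjustment, without a filter on dim probe sets. Scripts were tested on simulated data. The probe set ID names no genome position, and the arrays' build is not given in the sources used here.

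Carriers named were 22 chosen for their role in blood cells or for a set partner, 6 of them called, and the 2 other called ones, 24 in all. Slc6a20b was named beside them as the neighbour and relative of Slc6a20a. Of the pathway lists, the 3 called genes with the largest change per direction were named. Marker and pathway lists (those counted in the text) and the members were chosen with earlier results of these data known. A gene with several probe sets was read in the lists through the brightest. Promoter windows are RefSeq's, GRCm38.p6, and gene order came from its gene table. Alternatives were the replicate number as a block, quantile normalization, centred medians, a filter on dim probe sets, 1 probe set per gene, other fold minimums, 1 fit of all arrays, the methods' t-test and leaving out each array.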

Additional observations from a re-analysis of the deposited data

Results flagged for a closer look

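Single arrays that stood far from the other 3 of their group were looked for by Dixon's test (95% level) in 104 groups of 4 arrays, for the named carriers and Camkk2. It marked 9, where chance marks about 1 in 20. Slc43a3 read 10.11 on KSL WT replicate 1 (others 9.51 to 9.61), and Slc38a1 read 8.99 on the same array (others 8.73 to 8.76). The dimmer Slc6a9 probe set read 3.88 there (others 4.23 to 4.27), and the brighter one read 6.83 on KL WT replicate 2 (others 6.602 to 6.61). Slc38a2 read 8.63 on KL WT replicate 2 (others 8.96 to 9.02). Slc6a15 read 5.60 on KL WT replicate 3 (others 5.14 to 5.21), and Slc36a1 read 6.69 on KL WT replicate 4 (others 6.96 to 7.01). Slc6a6 read 8.02 on KL null replicate 1 (others 8.24 to 8.28), and Slc6a8 read 6.73 on KSL null replicate 1 (others 6.603 to 6.62). Without KSL WT replicate 1, Slc43a3 differed by 0.45 in KSL (adjusted p = 0.0168), and without KL WT replicate 2, Slc38a2 differed by -0.37 in KL (adjusted p = 8.00e-03).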

How the results depend on the processing

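The number of members called depended mainly on the fold minimum. Without it 17 members passed in KSL and 12 in KL, and a fold of at least 2 left 3 in KSL, 1 in KL and 0 between KSL and KL under the null label. After quantile normalization 7 were called in KSL, and 4 in KL, 3 higher and 1 lower in place of 3 and 3. The KL count ran from 3 to 6 when 1 array was left out (3 without WT replicate 4 or null replicate 4), the KSL count from 5 to 7, and the count between KSL and KL under null from 0 to 2. Without KL null replicate 4 the second of these was Slc7a8 (-0.68, adjusted p = 0.0308). The methods' t-test called 6 in each cell type unadjusted and 5 after Benjamini-Hochberg, which ended the call of Slc6a15 in KSL (adjusted p = 0.0665) and of Slc7a8 in KL (adjusted p = 0.0687). Over all probe sets the calls numbered 1521 in KSL, 1213 in KL and 79 and 26 between KSL and KL under null and WT. They were 5808, 4794, 324 and 36 without the fold minimum and 488, 410, 13 and 8 at a fold of at least 2. The 26 became 10 to 67 when 1 array was left out (10 without KL WT replicate 4, 67 without KSL WT replicate 2), and the 0 calls of the difference of effects became 2 after quantile normalization and 6 without KL null replicate 4.

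Whether the replicate numbers pair the arrays was not settled, since weak correlations cannot exclude it. Same-numbered arrays of 2 groups correlated in their deviations by -0.08 to 0.24, and in no pair of groups were all 4 above 0.1. The same number gave the highest correlation for 2 of 4 arrays in every pair of groups but 1. For KSL WT with KL null it did so for 0 of 4. The fit with the replicate block gave 6 member calls in KSL, 6 in KL, 0, 0 and 1 in the other comparisons, and changed no call of a named carrier. Camkk2 differed by -0.13 (adjusted p = 0.218, limma) in KSL and -0.05 (adjusted p = 0.777) in KL with the replicate block. Without the block the adjusted p was 0.714 and 0.923. Over all probe sets the block raised the calls between KSL and KL from 26 to 39 under WT and 79 to 80 under null. Calls between the genotype labels went from 1521 to 1552 in KSL and from 1213 to 1235 in KL.

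Signs turned for differences near 0. After quantile normalization these were Slc3a2 (0.059) and Slc7a11 (-0.00655) in KSL, Slc7a5 between KSL and KL under null (0.029), and the difference of effects for Slc38a5 (0.048) and Slc3a2 (0.069). Leaving out 1 array gave ranges across 0 for Slc3a2 in KSL (-0.052 to 0.014) and KL (-0.060 to 0.036), the dim Slc6a9 probe set in KL (-0.11 to 0.059), and the difference of effects for Slc38a5 (-0.19 to 0.080), Slc3a2 (-0.054 to 0.042) and Slc6a15 (-0.090 to 0.18). It did so between KSL and KL for Slc36a4 (-0.14 to 0.038), Slc7a5 (-0.058 to 0.14) and Slc6a15 (-0.20 to 0.074) under WT and Slc6a15 (-0.044 to 0.042) under null. For called list genes, a repeat chosen after seeing the data ended, beside the calls named in the text, those of Gsr in KL under the methods' t-test after adjustment, and of Sfxn3 in KSL after quantile normalization (-0.56). The cause was not tested.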
